A study of Mus musculus with 16 samples.

Results

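Ion channels and calcium pumps of the mouse colon were examined in proximal colon smooth muscle of germ-free (GF) mice, specific pathogen-free (SPF) mice and GF mice that had received the cecal microbiota of other mice. The genes were chosen by symbol from the probe annotation of the array: potassium channel subunits (Kcn), voltage-gated calcium and sodium channel subunits (Cacn, Scn), transient receptor potential channels (Trp) and polycystin 2, ryanodine and IP3 receptors (Ryr, Itpr), store-operated calcium entry genes (Orai, Stim), HCN channels, CLC chloride channels and transporters, ATP-gated P2X receptors and calcium pumps (Atp2a, Atp2b). This gave 101 of the 11055 annotated genes. Of them, 76 had a probe above background on at least 4 of the 16 arrays and were tested, and 36 were above background on all 16. The other 25 were above background on fewer than 4 arrays, among them Cacna1g, Trpv1, Trpv4, Trpm8, Kcnt1 and P2rx5. Trpc4ap entered by its symbol although its product binds a channel and is not one. Well known muscle and pacemaker genes such as Cacna1c, Itpr1, Ryr2 and Trpc4 were not analysed here.

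Contraction of colonic smooth muscle follows calcium that enters through voltage-gated channels or leaves the sarcoplasmic reticulum through ryanodine and IP3 receptors, and pumps then return it to the store or out of the cell. Potassium channels pull the membrane away from the threshold of the calcium channels. The large-conductance BK channel, built from Kcnma1 with the smooth muscle subunit Kcnmb1, opens with both voltage and calcium and so limits contraction. In the gut, interstitial cells of Cajal set the slow electrical rhythm, enteric neurons fire through their own sodium and potassium channels, and the epithelium uses a further set for ion transport.

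RNA was hybridized to Illumina mouse BeadChips, 4 arrays per group, from wild type C57Bl/6 mice. GF mice had no microbiota, and SPF mice carried a conventional one. Recipients of control microbiota (C/-Lop) were GF mice given cecal contents of untreated control mice, and recipients of PIC microbiota (C/+Lop) were GF mice given cecal contents of donors with pharmacologically induced constipation (PIC), which had drunk 0.1% loperamide, an opioid that slows transit, for 7 days. Recipients received no loperamide themselves and were examined some weeks after colonization. For both groups of recipients the sample records give an age of 8 to 10 weeks and 4 weeks after colonization. The paper also gives other ages and times. The records give no age for GF and SPF arrays. The labels give no sex for single arrays and do not say whether each array held a different animal. The p-values thus reflect only array-to-array spread, part of which may be technical.

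Values are log2 intensities after background correction and quantile normalization, in which every array has the same distribution. A gene was called changed at an adjusted p under 0.05 from limma, fitted to all 16 arrays and adjusted over 14102 probes. Between 12364 and 13942 probes were above background per array, and of the 76 channel genes 52 to 55 were above background on GF arrays, 60 to 68 on SPF arrays and 51 to 61 on arrays of recipients. The tissue was not muscle alone. Of 17 smooth muscle markers 16 were detected on all arrays (Acta2 at a mean log2 intensity of 14.25), and so were all 12 epithelial markers (Lgals4 at 13.88). The mean of the smooth muscle markers was 10.40 to 11.13 on GF arrays, and in SPF mice 11.07, 11.78, 11.05 and 11.71 (replicates 1, 2, 13 and 4), 10.50 to 10.81 in recipients of control microbiota and 10.62 to 10.68 in recipients of PIC microbiota. Epithelial markers went the other way, with SPF replicates 2 and 4 at 10.95 and 11.15, replicates 1 and 13 at 11.46 and 11.53, and GF arrays at 11.55 to 11.79. Xist, an RNA of female cells, was at 6.64 on SPF replicate 4 and at 6.85 to 7.01 on replicates 2 and 3 of both groups of recipients, and at most 4.99 elsewhere. In such bulk tissue, fewer cells of a type and less RNA per cell cannot be told apart.

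Between SPF and GF mice, 9 channel genes were called. Both subunits of the BK channel, the T-type calcium channel Cacna1h, the store release channel Ryr3 and the store pump Atp2a2 were significantly higher in SPF mice, with Kcnf1, Kcnk3 and a dim probe of Ryr1, and the cation channel Trpm4 was lower. These were 9 of 76, 8 higher and 1 lower, where 20.5% of all 9862 genes were called (10.9% higher and 9.55% lower). The channel genes were thus not called more often than other genes, and calls of lower expression were fewer. SPF and GF arrays did not overlap for 3 of the 76 genes (Kcnmb1, Cacna1h and Ryr1), where 18.9% of all genes did not. The median log2 fold change of the 76 genes was 0.13 against 0.01 for all genes, and 49 of the 76 lay above 0. The plot of fold changes by family shows that the higher calls fell in 6 of the 15 families.

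**Figure D1:**
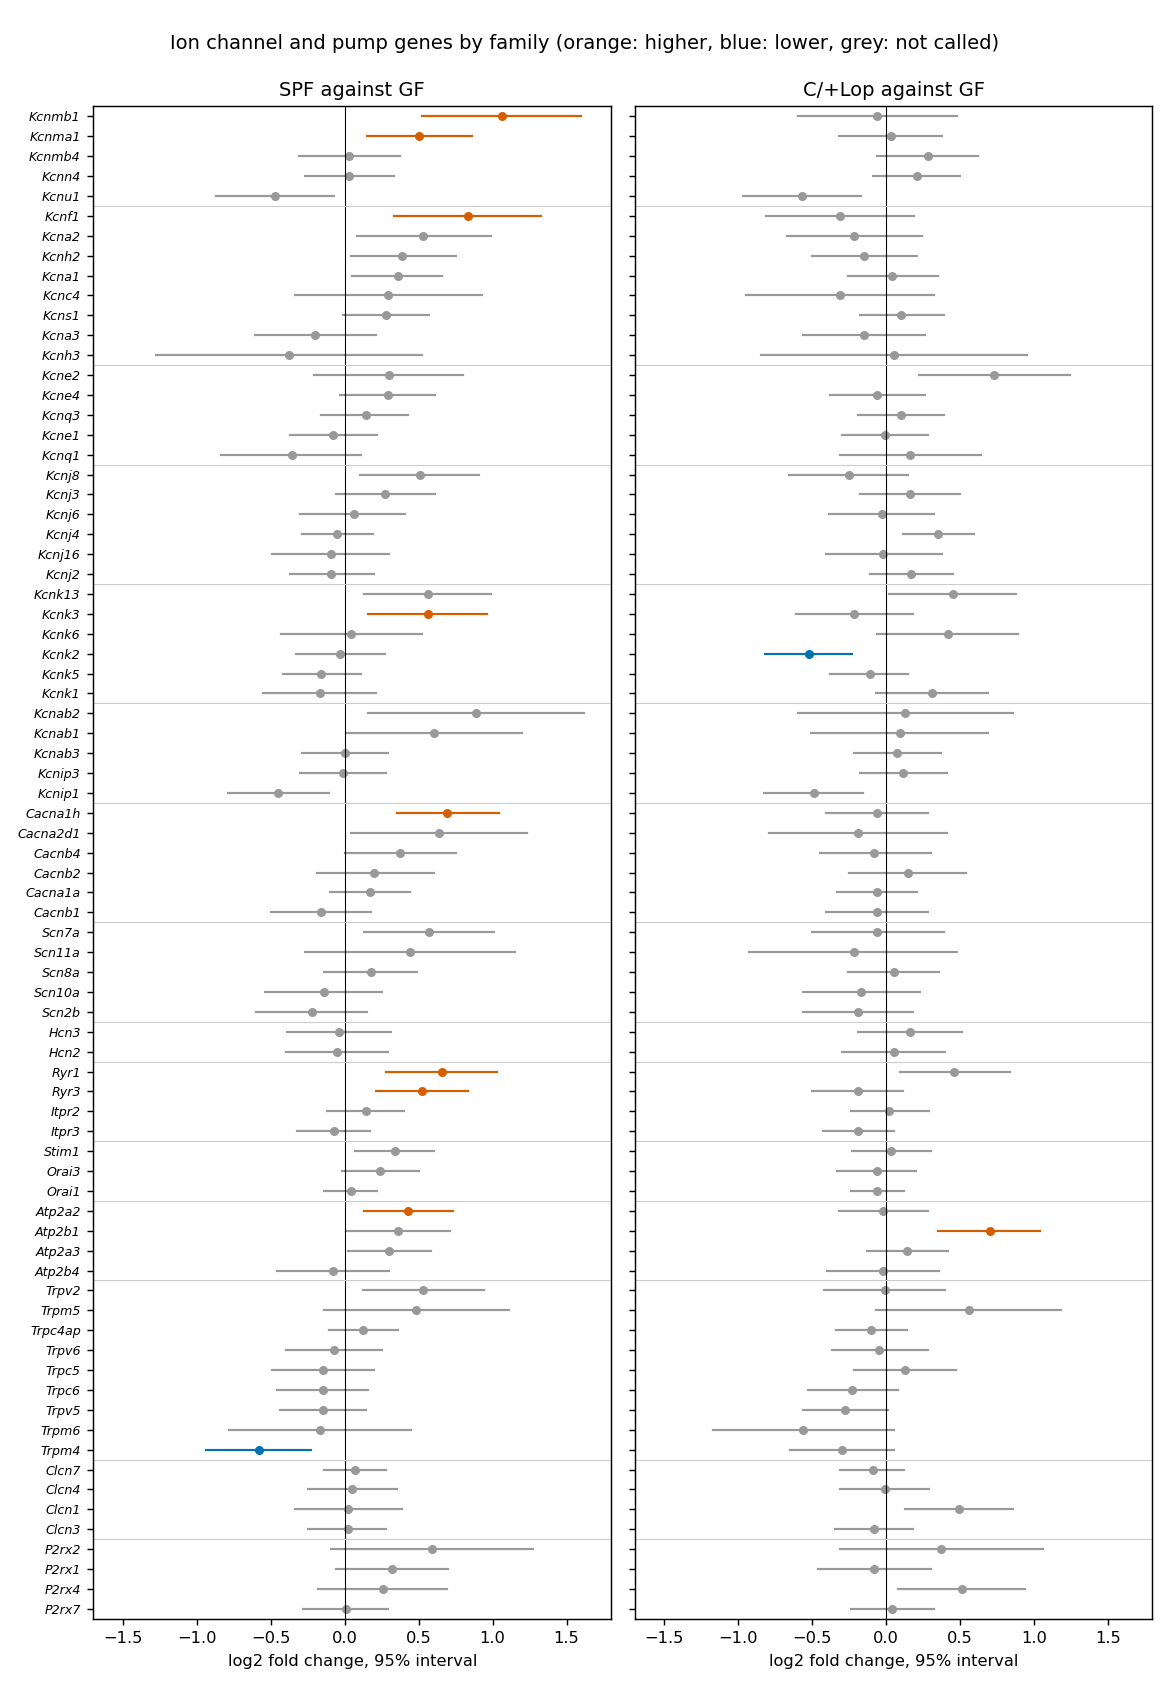
Log2 fold changes (points) with 95% intervals (bars) of the 76 channel genes in SPF against GF mice (left) and in recipients of PIC microbiota against GF mice (right), 4 arrays per group, ordered by family with grey lines between families. Orange genes were called higher and blue genes lower. On the left 8 genes are orange and Trpm4 is blue. On the right only Atp2b1 is orange and only Kcnk2 is blue.

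Kcnmb1, which encodes the beta subunit that raises the calcium sensitivity of the BK channel in smooth muscle, showed the largest fold change of the channel genes called. Its log2 intensity was 5.70, 5.39, 5.97 and 5.89 on the GF arrays and 6.31, 7.25, 6.30 and 7.33 on SPF replicates 1, 2, 13 and 4. Every SPF array lay above every GF array, and replicates 2 and 4 stood about 1 log2 unit above the other SPF arrays. Means were 6.80 ± 0.57 in SPF and 5.74 ± 0.26 in GF mice (SD, n = 4), a 2.09-fold difference (log2 fold change 1.06, SE 0.25; limma, adjusted p = 0.0107). Kcnma1, the pore of the same channel, was at 6.57, 5.87, 6.64 and 6.21 in GF mice and at 6.62, 7.10, 6.75 and 6.85 in SPF mice. Its groups overlapped through GF replicate 3, and the difference was 1.42-fold (log2 fold change 0.50, SE 0.17; limma, adjusted p = 0.0431). This call was lost in 9 of 16 alternatives and without each of 7 single arrays. None of the other 3 genes of this family passed. Kcnmb4, the beta subunit best known from neurons, and Kcnn4, the intermediate-conductance channel of epithelium and blood cells, both had log2 fold changes of 0.03.

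The sequences before the start of these 2 BK channel genes are shown because both were called higher in SPF mice while their promoters differ in composition. Whether the genes share regulation was not tested. They are the 250 bases before the RefSeq start, 5′ to 3′ on the strand of the gene in build GRCm38.p6, with each CG dinucleotide in capitals.
Kcnmb1, chr11:33962763-33963012, plus strand: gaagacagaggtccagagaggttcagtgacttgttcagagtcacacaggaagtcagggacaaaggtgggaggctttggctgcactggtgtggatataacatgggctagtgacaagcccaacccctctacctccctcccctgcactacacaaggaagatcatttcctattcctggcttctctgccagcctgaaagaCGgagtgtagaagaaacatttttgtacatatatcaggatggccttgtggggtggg
Kcnma1, chr14:24004206-24004455, minus strand: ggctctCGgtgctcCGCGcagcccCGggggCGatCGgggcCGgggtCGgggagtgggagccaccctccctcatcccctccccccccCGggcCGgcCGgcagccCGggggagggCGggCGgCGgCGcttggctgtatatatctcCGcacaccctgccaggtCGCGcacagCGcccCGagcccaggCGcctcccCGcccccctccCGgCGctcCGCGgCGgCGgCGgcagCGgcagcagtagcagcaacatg
The Kcnmb1 sequence had 1 CG and a GC content of 50.8%, and the Kcnma1 sequence had 31 CG and 79.2% GC, where the median of 32851 mouse promoters was 6 CG and 52.4%. Of all promoters, 18.8% had at most 1 CG. The CArG box, the element bound by serum response factor in smooth muscle genes, was searched on both strands and was found in 1.47% of all promoters, in neither of these sequences, and in 2 of the 80 channel genes with a promoter in the table, Trpc6 and Trpv1. These are matches of letters in short windows and no test of binding.

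Among voltage-gated calcium channels, Cacna1h was called. It encodes the T-type channel that opens at low voltage and is found in smooth muscle and interstitial cells. Its log2 intensity was 9.34, 8.67, 9.47 and 9.20 in GF mice against 9.69, 10.17, 9.58 and 10.01 in SPF mice, without overlap, and it was 1.62-fold above GF mice in SPF mice (log2 fold change 0.69, SE 0.16; limma, adjusted p = 0.00911). Cacna2d1, the auxiliary alpha-2-delta subunit that carries channels to the membrane, was at 8.45, 7.63, 9.16 and 8.40 in GF mice and at 8.70, 9.62, 8.61 and 9.24 in SPF mice. These groups overlapped, GF replicate 2 lay lowest, and a log2 fold change of 0.64 (SE 0.28) did not pass (adjusted p = 0.121 from limma). The beta subunit Cacnb2 was above background on 6 arrays only, none of them GF, and did not pass.

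Of the release channels of the calcium store, Ryr3 was at 5.49, 5.05, 5.69 and 5.38 in GF mice and at 5.69, 6.24, 5.79 and 5.97 in SPF mice. The ranges met at 5.69, and the difference was 1.43-fold (log2 fold change 0.52, SE 0.14; limma, adjusted p = 0.0215). Ryr1, the ryanodine receptor of skeletal muscle, was above background on no GF array and on SPF replicates 2 and 4 only. Its difference is at least about 1.10-fold (adjusted p = 0.0185 from limma). A further probe of Ryr1 gave a log2 fold change of -0.03 (SE 0.14). The IP3 receptors Itpr2 and Itpr3 had log2 fold changes of 0.14 and -0.07, and neither passed.

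Atp2a2 encodes SERCA2, which pumps calcium back into the store. It was at 10.93, 10.44, 11.16 and 10.81 in GF mice and at 11.08, 11.48, 11.07 and 11.44 in SPF mice, which overlapped through GF replicate 3, and it was 1.35-fold above GF mice in SPF mice (log2 fold change 0.43, SE 0.14; limma, adjusted p = 0.0426). Its other probe gave 0.29 (SE 0.16) and did not pass. Atp2a3, the SERCA3 pump of epithelium and blood cells, rose on 2 of its 3 probes. The brightest probe, used for the gene, gave 0.30 (adjusted p = 0.113), and the others gave 0.42 and 0.69 (adjusted p = 0.0481 and 0.043, all from limma). Stim1, the calcium sensor of the store, and Orai1, the channel that it opens, differed by 0.34 (SE 0.13) and 0.04 (SE 0.09) on the log2 scale, and neither passed.

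Other potassium channels were called singly. Kcnf1, a modulatory subunit that forms no channel of its own, was at 7.02, 7.56, 6.97 and 6.91 in GF mice and at 7.54, 8.38, 7.45 and 8.41 in SPF mice (log2 fold change 0.83, SE 0.24; limma, adjusted p = 0.0235). GF replicate 2 alone reached into the SPF range. Kcnk3 encodes TASK-1, an acid-sensitive background channel of the tandem-pore family, and it was at 5.25, 4.65, 5.20 and 5.17 in GF mice against 5.58, 5.82, 5.05 and 6.06 in SPF mice. Here SPF replicate 13 lay inside the GF range (log2 fold change 0.56, SE 0.19; limma, adjusted p = 0.0476). Kcnj8, the pore of the ATP-sensitive channel of smooth muscle, was at 7.34, 6.83, 7.40 and 7.30 in GF mice and at 7.29, 8.26, 7.37 and 7.98 in SPF mice. SPF replicates 1 and 13 lay within the GF range, and the log2 fold change of 0.51 (SE 0.19) did not pass (adjusted p = 0.0704 from limma). For Kcnh2, the ERG channel, probes disagreed. The brighter gave 0.39 (SE 0.17; adjusted p = 0.107) and the other 0.93 (SE 0.22; adjusted p = 0.00913, both from limma), with 6.58, 5.95, 6.84 and 6.22 in GF mice against 7.03, 7.68, 7.07 and 7.53 in SPF mice, which did not overlap.

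**Figure D2:**
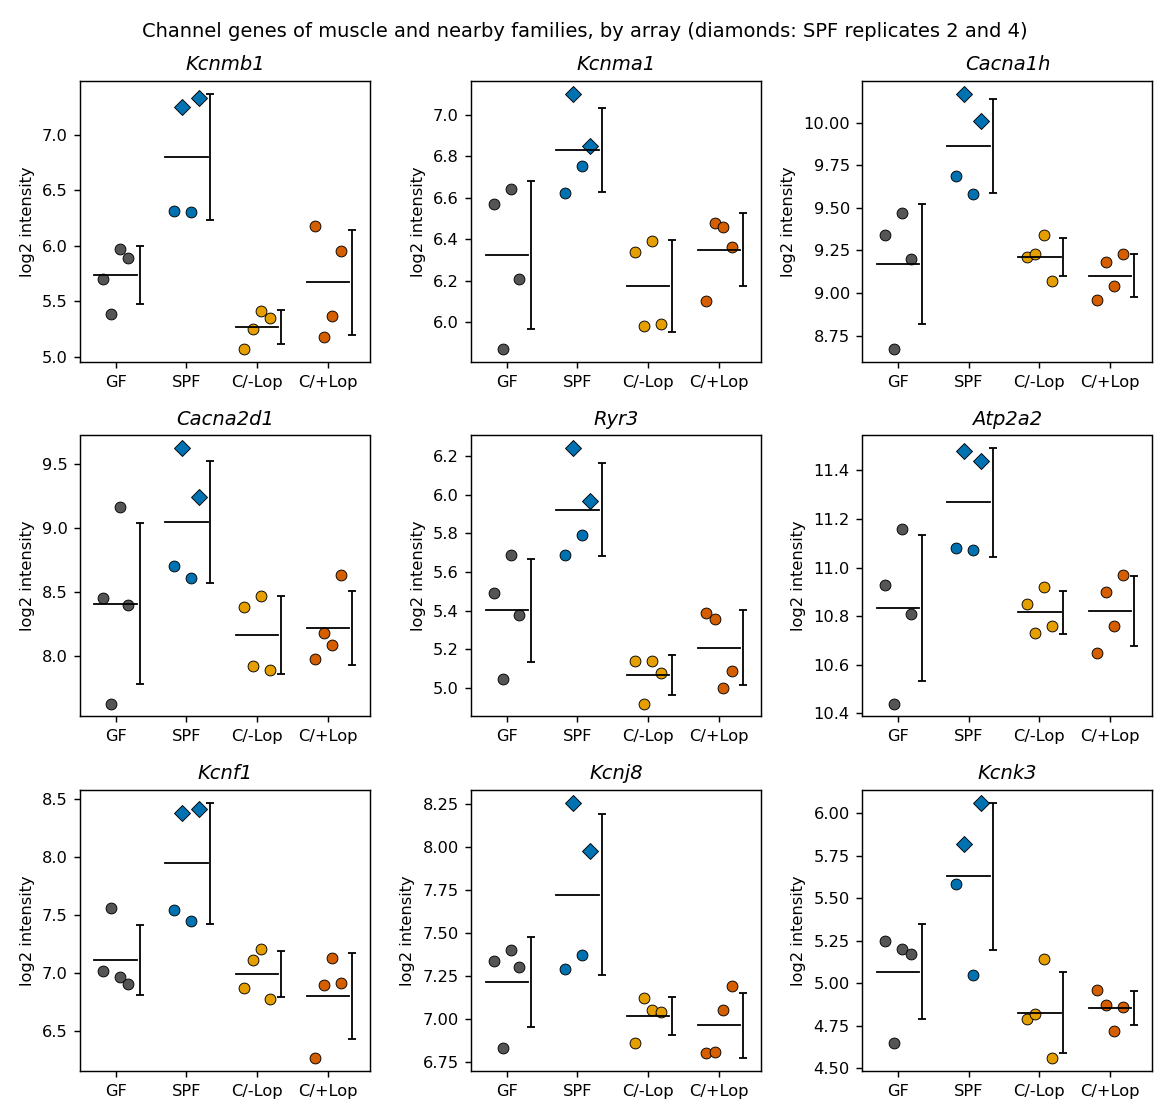
Log2 intensity of 9 channel genes on each array by group, with the mean (line) and SD (bar) of 4 arrays. Diamonds mark SPF replicates 2 and 4, which were the highest arrays for all genes shown, while SPF replicates 1 and 13 lay nearer to the other groups.

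Trpm4, a cation channel opened by internal calcium that depolarizes the membrane, was the only channel gene called lower in SPF mice. It was at 7.51, 8.10, 7.90 and 7.75 in GF mice and at 7.34, 7.08, 7.74 and 6.77 in SPF mice, and SPF replicate 13 lay inside the GF range (log2 fold change -0.58, SE 0.17; limma, adjusted p = 0.0236). Trpc6, a receptor-operated channel, was above background on 7 arrays (log2 fold change -0.15, SE 0.15). Trpv2, a stretch-sensitive channel of muscle and neurons, had a log2 fold change of 0.53 (SE 0.19; limma, adjusted p = 0.0621). No P2X receptor, CLC, HCN or voltage-gated sodium channel gene passed. The P2X receptors P2rx1, of smooth muscle, and P2rx2, of enteric neurons, differed by 0.32 (SE 0.18) and 0.59 (SE 0.32) on the log2 scale. The sodium channel Scn11a, known from sensory and enteric neurons, had 0.44 (SE 0.33), and the widely expressed Clcn3 had 0.02 (SE 0.13).

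Sorted by the cell type that the channels are known from, 23 of 40 listed genes of smooth muscle and interstitial cells were measured. Of these, 6 rose and 1 fell (median log2 fold change 0.34), where 10.9% of all genes rose and 9.55% fell. Of 11 epithelial channel genes none passed in limma (median -0.07), with Kcnq1, the channel of potassium recycling, at -0.36 (SE 0.22), and of 11 neuronal channel genes none passed (median 0.18), with Kcnab2, a beta subunit, at 0.89 (SE 0.34; adjusted p = 0.0787). At an unadjusted p under 0.05, 24 of all 76 channel genes passed (35.3% of all genes did), and the methods' t-test gave 9 before and 0 after adjustment (2598 and 85 of all 9862 genes). Genes that act beside the channels moved both ways, 10 of 47 rising and 6 falling, against the same 10.9% and 9.55% of all genes. Gucy1a1, a subunit of the guanylate cyclase that responds to nitric oxide, had a log2 fold change of 0.85, Camk2g and Camk2b, calcium-dependent kinases, had 0.69 and -1.0, and the stretch-activated channel Piezo2 had 0.69 (adjusted p = 0.00687, 0.00432, 0.000354 and 0.0058 from limma).

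Markers of several cell types moved with these genes. Of 17 smooth muscle markers 13 were called higher in SPF mice (median log2 fold change 0.67), with all 3 markers measured of interstitial cells of Cajal (0.93), 5 of 9 of fibroblasts and matrix (0.60), 4 of 6 of endothelium (0.65), 3 of 5 of macrophages (0.73) and 3 of 4 of B and plasma cells (1.13). Of 12 epithelial markers 4 were called lower (-0.39). Only 1 of 12 neuron markers was called higher (median 0.38), and the 1 glial marker was not called. With the mean of the smooth muscle markers as a covariate, chosen after seeing the data, none of the 9 calls remained. Kcnmb1 and Cacna1h were then at 0.32 and 0.14, Kcnk3 and Atp2a2 turned to -0.02 and -0.04, and 3 other genes passed, Atp2b1, P2rx4 and Trpm5. With the mean of the epithelial markers as a covariate no channel gene passed. Calls over all genes fell from 2018 to 248 with the muscle covariate and to 141 with the epithelial one. Epithelial marker means did not overlap between SPF (10.95 to 11.53) and GF arrays (11.55 to 11.79). Muscle marker means overlapped only from 11.05 to 11.13. Both covariates thus largely follow the groups, and the lost calls cannot decide whether tissue content takes part. Which cell types take part in the difference cannot be told apart in these arrays.

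Most of the calls depended on which arrays were kept. Without SPF replicates 2 and 4, none of the 9 remained and 2 others passed, Atp2b1 and Trpm5. That fit has only 2 SPF arrays, so lost calls there may also reflect lower power. Replicates 2 and 4 were also the highest SPF arrays for every gene called higher and the lowest for Trpm4. Leaving them out thus shrinks these differences, and the lost calls cannot decide whether the differences are stable. Without replicate 2 alone 2 genes passed, without replicate 4 alone 3, without GF replicate 2 or GF replicate 4 alone 5, and without SPF replicate 13 alone 18, and Kcnmb1 and Cacna1h kept their calls whichever single array was left out. Calls over all genes moved too, from 2018 to 479 without both SPF arrays, and to 964, 1312, 1081, 1580 and 2501 without SPF replicate 2, SPF replicate 4, GF replicate 2, GF replicate 4 and SPF replicate 13. The calls of Kcnk3 and Atp2a2 were the least stable, each lost in 12 of 16 alternatives and without 13 and 11 of the 16 single arrays, those of other groups included. In a fit of the GF and SPF arrays alone no channel gene passed, where 464 of all genes did. With median scaling in place of quantile normalization 5 were higher and 5 lower, where 813 and 1815 of all genes were. The median of all genes was then at -0.10.

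**Figure D3:**
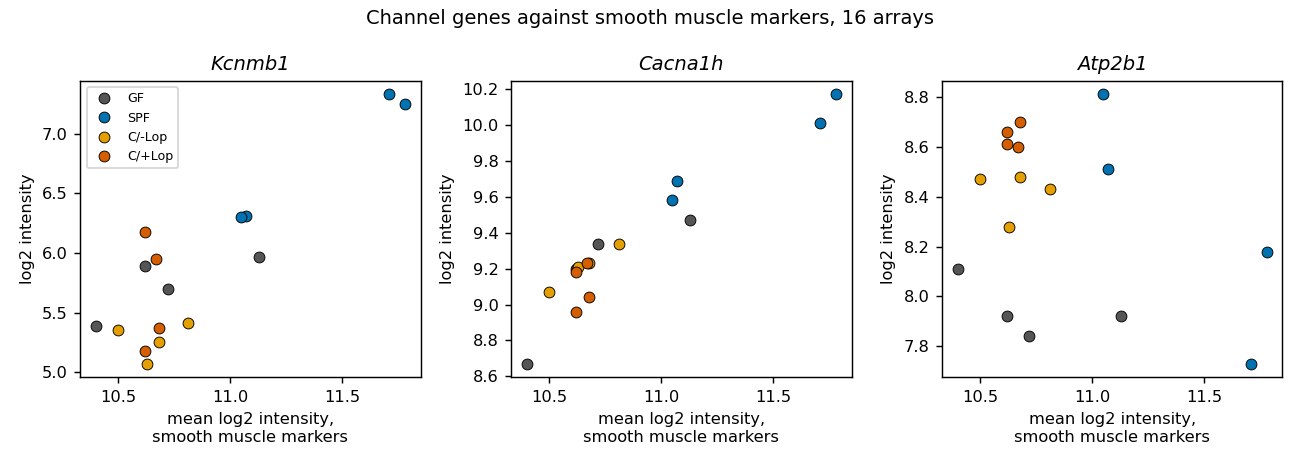
Log2 intensity of Kcnmb1, Cacna1h and Atp2b1 (vertical axes) against the mean log2 intensity of 17 smooth muscle markers (horizontal axes) on the 16 arrays, coloured by group. For Kcnmb1 and Cacna1h the highest arrays are SPF replicates 2 and 4, which also hold the most marker signal (11.78 and 11.71). Atp2b1 is lowest on an SPF array with high marker signal and lies above all GF arrays on every array of recipients.

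Few channel genes were called in recipients against GF mice. Over the 76 genes the 95% intervals of the log2 fold change reached from -1.06 to 1.39 in recipients of control microbiota. In recipients of PIC microbiota they reached from -1.17 to 1.24. For the least precise genes, differences of that size are thus not excluded by these arrays. Between recipients of control microbiota and GF mice, limma called none of the 76, where 2.76% of all genes were called (1.46% higher and 1.3% lower). At an unadjusted p under 0.05, 11 passed (17.7% of all genes did), and the methods' t-test gave 13 before and 1 after adjustment (1854 and 72 of all 9862 genes). The 1 gene was Kcnj2, an inward rectifier above background on no GF array. The median log2 fold change was -0.02 for the channel genes and -0.01 for all genes. The groups did not overlap for 7 of the 76 genes, where 13.4% of all genes did not. The comparison with recipients of PIC microbiota used the same GF arrays. It had 2 calls among channel genes, Atp2b1 higher and Kcnk2 lower, where 7.19% of all genes were called (3.33% higher and 3.86% lower), and no overlap for 3 of 76 genes, where 17.4% of all genes did not overlap. At an unadjusted p under 0.05, 10 of 76 passed here (24.1% of all genes did). None of the 17 smooth muscle markers was called in either comparison (limma), and 2 of 5 macrophage markers and 1 of 4 B and plasma cell markers were called higher in both.

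Atp2b1 encodes PMCA1, the pump that moves calcium out of the cell in most tissues. It was at 7.84, 8.11, 7.92 and 7.92 in GF mice, at 8.28, 8.48, 8.43 and 8.47 in recipients of control microbiota and at 8.66, 8.61, 8.70 and 8.60 in recipients of PIC microbiota. None of these 3 groups overlapped, and the SPF arrays, at 8.51, 8.18, 8.81 and 7.73, spanned all of them. Against GF mice, it was 1.62-fold higher in recipients of PIC microbiota (log2 fold change 0.70, SE 0.16; limma, adjusted p = 0.0196), and in recipients of control microbiota 0.47 (SE 0.16) did not pass (adjusted p = 0.144). The call stood in all 15 alternative analyses. It was lost without GF replicate 1 or 3 or recipient replicate 1 or 3, at adjusted p values up to 0.056.

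Kcnk2, which encodes TREK-1, a stretch-sensitive background channel of the tandem-pore family, was at 6.40, 5.81, 6.28 and 6.41 in GF mice. It was at 5.98, 5.77, 5.95 and 5.85 in recipients of control microbiota and at 5.44, 5.80, 5.59 and 5.98 in recipients of PIC microbiota. GF replicate 2 lay among the recipients and the other GF arrays above them. In recipients of PIC microbiota it was 1.44-fold lower than in GF mice (log2 fold change -0.52, SE 0.14; limma, adjusted p = 0.0347), and in recipients of control microbiota -0.34 (SE 0.14) did not pass (adjusted p = 0.217). This call was lost in 6 of 15 alternatives, among them cyclic loess, median scaling and a fit of the 2 groups alone, and without each of 6 single arrays (GF replicates 1, 3 and 4, recipient replicates 1, 2 and 3).

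Kcne2 and Kcnip1 lay just outside the threshold in recipients. Kcne2, a subunit that makes KCNQ1 a constantly open channel, was at 5.85, 6.12, 4.85 and 5.65 in GF mice, 6.73, 6.63, 6.46 and 6.16 in recipients of control microbiota and 6.38, 6.38, 6.57 and 6.06 in recipients of PIC microbiota. GF replicate 3 was lowest, and recipients of control microbiota lay above all GF arrays (log2 fold changes 0.88 and 0.73, SE 0.24; limma, adjusted p = 0.0618 and 0.0754). Kcnip1, a calcium-binding subunit of A-type potassium channels, was lower than in GF mice by both comparisons (-0.58 and -0.49, SE 0.16; limma, adjusted p = 0.0616 and 0.0715), and SPF mice had -0.45 (SE 0.16; adjusted p = 0.0583). P2rx4, an ATP-gated cation channel of epithelium and macrophages, was at 9.25 to 10.32 in GF mice, 10.20 to 10.41 in recipients of control microbiota and 10.24 to 10.65 in recipients of PIC microbiota, and did not pass (0.39 and 0.51, SE 0.20; limma, adjusted p = 0.332 and 0.137). Its other probe gave 0.58 and 0.74 (SE 0.26; limma, adjusted p = 0.257 and 0.0938), and -0.16 in SPF against GF mice. In recipients of PIC microbiota against SPF mice that probe passed (0.90, SE 0.26; limma, adjusted p = 0.0242). Without GF replicate 2, Kcne2 and Kcnip1 passed in both comparisons, 2 genes in all against control recipients and 5 against PIC recipients. Of all 9862 genes, 212 and 660 passed there. Without SPF replicate 4, whose arrays enter the shared estimate of spread, Kcne2 and Atp2b1 passed in recipients of control microbiota, and without C/-Lop replicate 4 Kcnip1 did.

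A dimmer probe of Atp2a3 behaved differently from the one used for the gene, and is described because its values stood out. It was at 7.19, 7.40, 6.09 and 6.89 in GF mice, 7.93, 7.51, 7.48 and 7.42 in SPF mice, 7.81, 8.03, 8.15 and 7.86 in recipients of control microbiota and 8.51, 8.14, 8.01 and 7.81 in recipients of PIC microbiota. Every colonized array lay above every GF array. Against GF mice the log2 fold change was 0.69 in SPF mice, 1.07 in recipients of control microbiota and 1.22 in recipients of PIC microbiota (SE 0.23; adjusted p = 0.043, 0.0229 and 0.00654 from limma), where the brightest probe gave 0.30, 0.23 and 0.14 (SE 0.13). The latter read 12.44 to 13.40 on all arrays. A dim probe of Trpm6, a magnesium channel of epithelium, gave -0.62 (SE 0.18; limma, adjusted p = 0.0443) in recipients of PIC microbiota against GF mice, and its brighter probes gave -0.71 and -0.56 (SE 0.29) and did not pass.

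**Figure D4:**
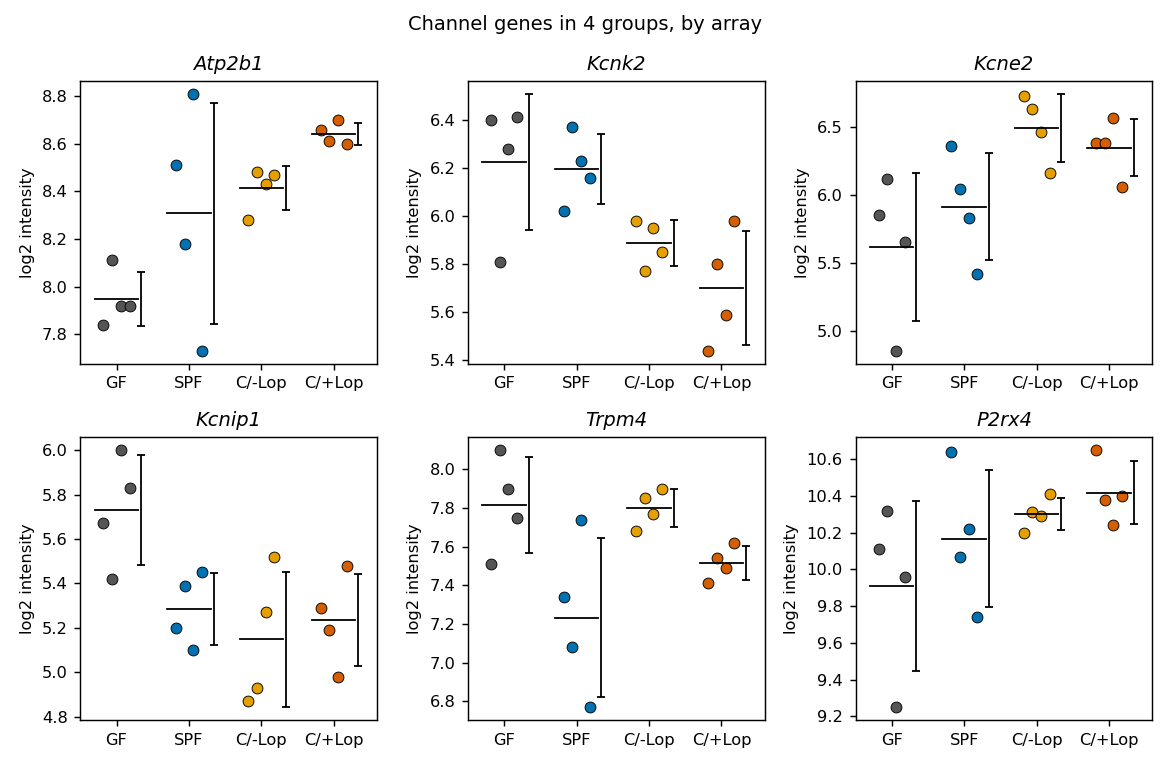
Log2 intensity of Atp2b1, Kcnk2, Kcne2, Kcnip1, Trpm4 and P2rx4 on each array by group, with the mean (line) and SD (bar) of 4 arrays. Atp2b1 does not overlap between GF mice, recipients of control and recipients of PIC microbiota, while SPF arrays (7.73 to 8.81) span these 3 groups. Its differences between the recipient groups (log2 fold change 0.23, SE 0.16) and of control recipients from GF mice (0.47, SE 0.16) did not pass. Kcnk2 is lowest in recipients of PIC microbiota (means 5.70 against 6.23 in GF mice).

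Recipients of PIC and of control microbiota were compared to ask whether the microbiota of constipated donors acts on the host. No channel gene differed in limma, where 0% of all genes were called. At an unadjusted p under 0.05, 3 of 76 passed (3.78% of all genes did), and the methods' t-test gave 5 before and 0 after adjustment (630 and 0 of all 9862 genes). The log2 fold changes of the 76 genes lay between -0.36 and 0.40, with standard errors of 0.09 to 0.42. Over these 76 genes the 95% intervals reached from -0.83 to 1.11. For the least precise of them a difference of up to about 1 log2 unit is thus not excluded by these arrays. For the genes above, the intervals were -0.14 to 0.94 for Kcnmb1, -0.18 to 0.53 for Kcnma1, -0.45 to 0.23 for Cacna1h and -0.30 to 0.30 for Atp2a2.

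The 3 genes with the smallest p were Kcns1, a modulatory potassium channel subunit (-0.36, SE 0.13), Clcn1, the chloride channel known from skeletal muscle (0.40, SE 0.17), and Trpv5, an epithelial calcium channel (-0.31, SE 0.14), and each had an adjusted p of 1 from limma. All 3 probes were dim, and Trpv5, above background on 7 arrays, is named because its p was seen. In 2 of 76 genes the recipient groups did not overlap, where 4.2% of all genes did not. Atp2b1 was higher in all PIC recipients (0.23, SE 0.16). Trpm4 was lower in all of them, at 7.41, 7.54, 7.49 and 7.62 against 7.68, 7.85, 7.77 and 7.90 in recipients of control microbiota (-0.29, SE 0.17). Neither difference passed.

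Against SPF mice, 7 of the 8 channel genes called higher in SPF than in GF mice were called lower in both groups of recipients, and Ryr1 was not called (means 5.02 and 5.08 in recipients and 5.28 in SPF mice). Since the same SPF arrays stand in both comparisons and in the comparison with GF mice, these are no separate evidence for the SPF level. The matching share among all genes called higher in SPF mice was not counted, so this is no trait of channel genes. In recipients of control microbiota 10 channel genes were lower and 1, Trpm4, higher, 11 of 76 where 16.4% of all genes were called (9.44% lower and 6.94% higher). In recipients of PIC microbiota 13 were lower and 1, Kcnj4, higher, 14 of 76 where 21.1% of all genes were called (11.9% lower and 9.26% higher). The groups did not overlap for 12 and 15 of the 76 genes, where 21% and 22.4% of all genes did not overlap. Shares of channel genes called were thus near those of all genes.

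In recipients of control microbiota Kcnmb1 differed most from SPF mice, and in PIC recipients Kcnf1 (-1.14) and Kcnmb1 (-1.13) did. Kcnmb1 was at 5.07, 5.25, 5.41 and 5.35 in recipients of control microbiota and at 6.18, 5.18, 5.37 and 5.95 in recipients of PIC microbiota, all below the lowest SPF array at 6.30. The difference from SPF mice was 2.88-fold and 2.18-fold (log2 fold changes -1.53 and -1.13, SE 0.25; limma, adjusted p = 0.003 and 0.00755). Against GF mice, recipients of control microbiota were at -0.47 (SE 0.25; adjusted p = 0.36) and recipients of PIC microbiota at -0.06 (SE 0.25), neither passing. Kcnma1 was at 6.34, 5.98, 6.39 and 5.99 in recipients of control microbiota and at 6.10, 6.48, 6.46 and 6.36 in recipients of PIC microbiota, below every SPF array (-0.65 and -0.48, SE 0.17; limma, adjusted p = 0.0162 in the former). In the latter the adjusted p rounds to 0.05 and lay just under the threshold, and this call was lost without 13 of the 16 single arrays.

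The store release channel Ryr3 was 1.81-fold lower in recipients of control microbiota, at 5.14, 4.92, 5.14 and 5.08, and 1.64-fold lower in recipients of PIC microbiota, at 5.39, 5.36, 5.0 and 5.09 (adjusted p = 0.00309 and 0.00428 from limma). No array of recipients reached the lowest SPF array at 5.69. The calcium channel genes followed. Cacna1h was lower by 1.57-fold and 1.69-fold, with recipients at 8.96 to 9.34 and SPF mice at 9.58 to 10.17. Cacna2d1 was lower by 1.84-fold and 1.77-fold, with recipients of PIC microbiota at up to 8.63, above the lowest SPF array at 8.61, and both calls were lost without 11 of the 16 single arrays. Atp2a2 was lower by 1.37-fold in both. Its other probe gave -0.46 and -0.56 on the log2 scale (SE 0.16; limma, adjusted p = 0.0564 and 0.0223).

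Among potassium channels, Kcnf1 (-0.95 and -1.14, SE 0.24), Kcnj8 (-0.71 and -0.76, SE 0.19) and Kcnk3 (-0.80 in recipients of control microbiota, SE 0.19) were called lower in both groups of recipients. Kcnj8 was at 6.80 to 7.19 on arrays of recipients and at 7.29 to 8.26 on SPF arrays. Kcnk3 was above background on no array of PIC recipients, so that its difference from SPF mice there is at least 1.43-fold. The store-operated channel Orai3 was called lower in recipients of control microbiota (-0.39, SE 0.12; limma, adjusted p = 0.0438), and PIC recipients had -0.30 (SE 0.12; adjusted p = 0.0921). In PIC recipients, Kcnh2 (-0.54, SE 0.17), Kcnk2 (-0.49, SE 0.14), Scn7a, a sodium-sensing channel of glia and muscle (-0.63, SE 0.21), and Kcna2, a delayed rectifier, were also called lower. Kcna2 was above background on no array of PIC recipients and on all 4 SPF arrays, a difference of at least 1.40-fold. The call of Scn7a was lost in 13 of 15 alternatives and without 12 of the 16 single arrays. The inward rectifier Kcnj4 was above background on no SPF array and on 3 of PIC recipients, at least about 1.12-fold higher. Calls made in only 1 group of recipients are no sign that the groups differ, since none of these genes passed between them.

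Trpm4 was higher in recipients of control microbiota than in SPF mice (0.57, SE 0.17; limma, adjusted p = 0.0302), at 7.68 to 7.90 against 6.77 to 7.74, and in PIC recipients 0.28 (SE 0.17) did not pass. Epithelial Kcnq1 and Kcnn4 had log2 fold changes of 0.30 and 0.24 in recipients of control microbiota and 0.53 and 0.18 in PIC recipients, none passing. Markers of several cell types moved with these genes here too. Of 17 smooth muscle markers 13 were called lower in each group of recipients, and in recipients of control and PIC microbiota so were 4 and 5 of 9 fibroblast and matrix markers, 1 and 2 of 3 markers of interstitial cells of Cajal, 1 and 2 of 6 endothelial markers and the 1 glial marker. None of 12 epithelial markers and none of 12 neuron markers was called in limma. In each group of recipients 1 of 5 macrophage markers was called higher and 1 of 4 B and plasma cell markers lower. With the mean of the smooth muscle markers as a covariate, 0 channel genes passed in limma in either comparison. Of the 9862 genes, 19 and 78 passed in that fit. The marker mean was 11.05 to 11.78 on SPF arrays and 10.50 to 10.81 and 10.62 to 10.68 on those of recipients, without overlap. The covariate thus nearly stands for the group, and the lost calls cannot decide whether muscle content takes part.

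Without SPF replicates 2 and 4, 3 channel genes passed in recipients of control microbiota (2 of them from the 11) and 1 in PIC recipients (none of the 14), while calls over all genes fell from 1615 to 420 and from 2083 to 653. That fit has only 2 SPF arrays, so lost calls may reflect lower power. The arrays left out were also the highest SPF arrays for all genes called lower except Orai3, Kcna2 and Kcnk2. Leaving them out thus shrinks most of these differences, and the lost calls cannot decide whether they are stable. For recipients of control microbiota, 3 passed without SPF replicate 2, 7 without SPF replicate 4 and 6 without C/-Lop replicate 4. Of all genes, 713, 1195 and 930 passed there. For PIC recipients 6 passed without SPF replicate 2 or C/+Lop replicate 3, and 8 without C/+Lop replicate 1 or 2. Of all genes, 1067, 1281, 1458 and 1427 passed there, in the order named. Under median scaling 11 were higher and 8 lower in recipients of control microbiota and 7 and 7 in PIC recipients, with the median of all genes at 0.12 and 0.08, while Kcnmb1, Ryr3 and Cacna1h were called lower in both. Of all genes, 1655 were then higher and 691 lower in the former, and 1451 and 854 in the latter.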

How the data were processed

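Total RNA of 16 samples, 4 per group, was measured on Illumina mouse BeadChips. Deposited were non-normalized intensities per probe with their bead counts and detection p-values, and log2 values that the authors had normalized with limma (no version stated). Their background correction, filter and scanner software are not given in the sources used here. Intensities of all 25697 probes were background-corrected from the detection p-values (neqc, offset 16), quantile normalized and log2 transformed in limma 3.58.1 (R 4.3.3). The offset makes fold changes of dim probes smaller. The deposited log2 values of 16029 probes differed from these by at most 0.02508 and served as an alternative.

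Probes detected at p under 0.05 on at least 4 arrays were kept (14102, of which 13321 had 1 gene by the platform annotation, updated through Entrez identifiers, and 781 no name here). The brightest kept probe stood for a gene, and 12 channel genes had further probes. Standard errors and 95% intervals came from 1 limma fit of the 4 groups (12 residual degrees of freedom), with Benjamini-Hochberg adjustment over all kept probes, tested on simulated data first. A probe above background on no array of a group has only a bound there, and its fold is given as "at least". It is the other group's mean against the lowest signal detected at p under 0.05 on each array. For Ryr1 and Kcnj4 that mean includes arrays without detection, so their bounds are approximate. The number of arrays limits precision.

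Named were, per comparison, up to 10 called genes in each direction, in each family up to 2 genes with the smallest p against GF mice, a fixed set of genes known from muscle and epithelium, and up to 4 genes of other lists. Genes outside this rule (Kcnmb4, Itpr2, Itpr3, Atp2a3, Trpm5, Trpm6, Trpv5 and Kcnj2) were chosen after their values were seen. The members and lists were chosen with earlier results of these data known. Alternatives changed the normalization, background correction, filter, test, samples and covariates, and left out each array in turn. Promoter sequences are from RefSeq, build GRCm38.p6. Figures were drawn with matplotlib 3.10.9 in Python 3.11.15.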

Additional observations from a re-analysis of the deposited data

Results flagged for a closer look

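In 4 of 72 groups of 4 arrays, over 18 genes, 1 array stood far from the others, where chance alone gives about 1 in 20 groups. All 4 were GF arrays. Kcnf1 was at 7.56 on GF replicate 2 and at 6.91 to 7.02 on the other GF arrays. Kcnk3 was at 4.65 on the same array and at 5.17 to 5.25 on the others. Kcna2 was at 5.27 on GF replicate 1, with the others at 4.98 to 4.99. Kcnj4 was at 5.06 on GF replicate 3, with the others at 4.74 to 4.78, and was above background on no GF array. GF replicate 2 also had the lowest mean of smooth muscle markers (10.40) and the highest mean of epithelial markers (11.79) among the GF arrays. Whether this bears on its Kcnf1 and Kcnk3 values was not tested.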

How the results depend on the processing

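Counts are of channel genes called by limma unless another test is named, and the cause of a moved count was not tested. For SPF against GF mice (9), 0 passed in a fit of the 2 groups alone, by the methods' t-test after adjustment and with the epithelial marker mean as a covariate, 4 with array weights, 3 with the smooth muscle covariate and 2 without SPF replicates 2 and 4. Of all 9862 genes (2018 in the main fit), 464, 85, 141, 1258, 248 and 479 passed in these settings, in the order named. For recipients of control microbiota against GF mice (0), 1 passed with cyclic loess, with median scaling, in a fit of the 2 groups, by the methods' t-test after adjustment and with the epithelial covariate, 3 with the smooth muscle covariate, 5 with array weights and 13 by the unadjusted t-test. Of all genes (272 in the main fit), 317, 197, 204, 72, 343, 545, 828 and 1854 passed in these settings. For recipients of PIC microbiota against GF mice (2), 1 passed with cyclic loess, in a fit of the 2 groups, by the t-test after adjustment and with sex as a covariate, 4 with the epithelial covariate, 5 with array weights, 7 with the smooth muscle covariate and 9 by the unadjusted t-test. Of all genes (709 in the main fit), 805, 590, 295, 417, 709, 1360, 1168 and 2266 passed in these settings. Between the recipients (0), 5 passed by the unadjusted t-test (630 of all genes) and 0 in every other alternative run (0 of all genes). For recipients of control microbiota against SPF mice (11), 19 passed with median scaling, 17 by the unadjusted t-test and 3 after adjustment, 4 with the epithelial and 0 with the smooth muscle covariate, and 3 without SPF replicates 2 and 4. Of all genes (1615 in the main fit), 2346, 2721, 539, 786, 19 and 420 passed in these settings. For recipients of PIC microbiota against SPF mice (14), 3 passed by the t-test after adjustment, 8 with the epithelial and 0 with the smooth muscle covariate, and 1 without SPF replicates 2 and 4. Of all genes (2083 in the main fit), 634, 1657, 78 and 653 passed in these settings. Other alternatives gave counts within 1.5 times the main ones.

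Leaving out 1 array gave 2 (without SPF replicate 2) to 18 (without SPF replicate 13) for SPF against GF mice, 0 to 2 and 0 to 5 for recipients of control and PIC microbiota against GF mice, 0 to 0 between recipients, and 3 to 15 and 6 to 18 for them against SPF mice. In the 2 settings named, 964 and 2501 of all genes passed. Counts over all genes also moved in the other comparisons with GF or SPF mice. With the smooth muscle covariate, log2 fold changes turned to -0.04 for Atp2a2 and -0.02 for Kcnk3 (SPF against GF), to 0.06 for Atp2a2, 0.23 for Cacna2d1 and 0 for Kcnj8 (recipients of control microbiota against SPF), and to 0.07 for Atp2a2, 0.30 for Cacna2d1, 0.10 for Kcnh2, 0.04 for Kcnma1 and 0.10 for Scn7a (recipients of PIC microbiota against SPF). This covariate largely follows the groups in the comparisons with SPF mice, so these turns decide nothing.

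Replicate numbers share only a number. Correlations of same-numbered arrays ran from -0.545 to 0.357, not every array was closest to its own number, and SPF replicate 13 has no partner. With the replicate block, the counts were 0 for SPF against GF mice, 0 and 1 for recipients of control and PIC microbiota against GF mice, 0 between recipients, and 0 and 3 for them against SPF mice. Of all 9862 genes, 0, 44, 149, 0, 0 and 302 passed there, in the order named. Fits on SPF mice used replicates 1, 2 and 4 there. For 22 channel genes, above background on 4 to 8 arrays only, differences are poorly resolved.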
